A study of Homo sapiens with 15 samples.

Results

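Human A549 cells, an established line from a lung adenocarcinoma, were transfected either with a synthetic copy of the microRNA miR-629* (a mimic, the overexpressing cells) or with a locked nucleic acid antagomir against it (an antisense oligonucleotide, the knocked-down cells), each at 20 nM for 24 h. RNA of the overexpressing cells was labelled with Cy5 and RNA of the knocked-down cells with Cy3, and both were hybridised to the same array, so each array gives a ratio of mimic over antagomir. The 3 arrays titled miR-629* were taken of 15 in the study. The other 12 arrays hold miR-181d, miR-565, miR-574-3p and miR-766, with 3 arrays each, made in the same way and always with the overexpressing cells in Cy5. All 15 arrays share the cell line and the dye orientation, and no array with the dyes exchanged or with cells given a control oligonucleotide was analysed here. The labels do not say whether replicates came from separate cultures, so p-values measure the spread between arrays, which may be technical.

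MicroRNAs guide Argonaute proteins to messenger RNAs that pair with their seed, the bases near the 5′ end, and the paired transcripts are repressed or degraded. A mimic adds guide strands, whereas an antagomir binds the cell's own copies and relieves their targets. Transcripts under direct repression would then be lower in Cy5 than in Cy3, and so have a negative log2 ratio. The star form of miR-629 is now named hsa-miR-629-3p, and the opposite arm of the same hairpin is hsa-miR-629-5p.

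The mature sequences in RefSeq (GRCh38.p14) are shown 5′ to 3′ with the seed, bases 2 to 8, in capitals, because the seed is the part by which the 2 arms would choose different transcripts. The labels do not give the sequence of the mimic or of the antagomir.
hsa-miR-629-3p: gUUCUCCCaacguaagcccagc
hsa-miR-629-5p: uGGGUUUAcguugggagaacu
The 3p arm lies at chr15:70079387-70079408 and the 5p arm at chr15:70079427-70079447, both on the minus strand. The hairpin gene MIR629 lies within the span of TLE3, a Groucho-family corepressor, at chr15:70047790-70097917. In the table used, 0 other human mature miRNAs carried the 3p seed. The same held for 0 of the study's other miRNAs found in that table. It lacked miR-565 and miR-766-3p, so their seeds were not compared.

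The arrays carry 41000 probes of 60 bases, of which 31345 were tested. A gene was read from its brightest probe, which gave 23012 genes, 14683 of them with a symbol in RefSeq. On the 15 arrays 68.1% to 75.5% of probes were well above background in a channel. The standard deviation of the log2 ratio over probes was 0.471, 0.364 and 0.532 on miR-629* replicates 1, 2 and 3, and 0.942 on miR-565 replicate 1, which stands apart from the rest and enters the reference. All 3 miR-629* arrays lay on a slide with only 1 array of another miRNA, miR-574-3p replicate 3, so slide and miRNA can be told apart only through that array. Of 12 A549 epithelial markers (keratins, AKR1B10, AKR1C1 and ALDH1A1 among them) 12 were well above background in both channels on all 3 arrays, with a median Cy3 signal of 42808. EPCAM was the lowest of them, at 149. Of 10 markers of blood, endothelial and stromal cells, 6 were not well above background on any of the 3 arrays. PTPRC, PECAM1 and COL3A1 were among those 6. The other 4, CD14, CD3E, COL1A1 and VWF, were well above background in both channels on all 3 arrays. The highest Cy3 signal of the list was 148, for CD14. Of 3 genes known to be deleted in A549, CDKN2B was not well above background, while the probes of CDKN2A and MTAP were, at Cy3 signals of 381 and 297. Why those probes gave signal was not tested.

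Most of what the miR-629* arrays showed as a ratio was shared with the other miRNAs. By limma's moderated test with Benjamini-Hochberg adjustment over all probes, 2469 genes (10.7% of those tested) had a ratio that differed from 0 at an adjusted p under 0.05, 1040 lower with the mimic (4.52%) and 1429 higher (6.21%). Of the 2469 genes, 2440 (98.8%) had the same sign in the mean ratio of the other 4 miRNAs. Across genes, which are not independent replicates, the mean ratio of miR-629* correlated with that of the other miRNAs at r = 0.805. For single miRNAs this was 0.766 for miR-766, 0.685 for miR-565, 0.576 for miR-181d and 0.468 for miR-574-3p. Single miR-629* arrays correlated with the mean of the other miRNAs at 0.703, 0.509 and 0.694 for replicates 1, 2 and 3. They correlated with each other at 0.262 for replicates 1 and 2, 0.503 for 1 and 3 and 0.609 for 2 and 3. Once the mean of the other miRNAs was taken off, these 3 values were -0.20, 0.093 and 0.318. All arrays have the same dye orientation, so dye and mimic cannot be told apart in a ratio against 0. The count of 2469 fell to 776, 596 and 263 without miR-629* replicate 1, 2 or 3 and to 7 with the slide as a random block, whose within-slide correlation rests on miR-565 replicate 1, and it was 8295 without that array.

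**Figure D1:**
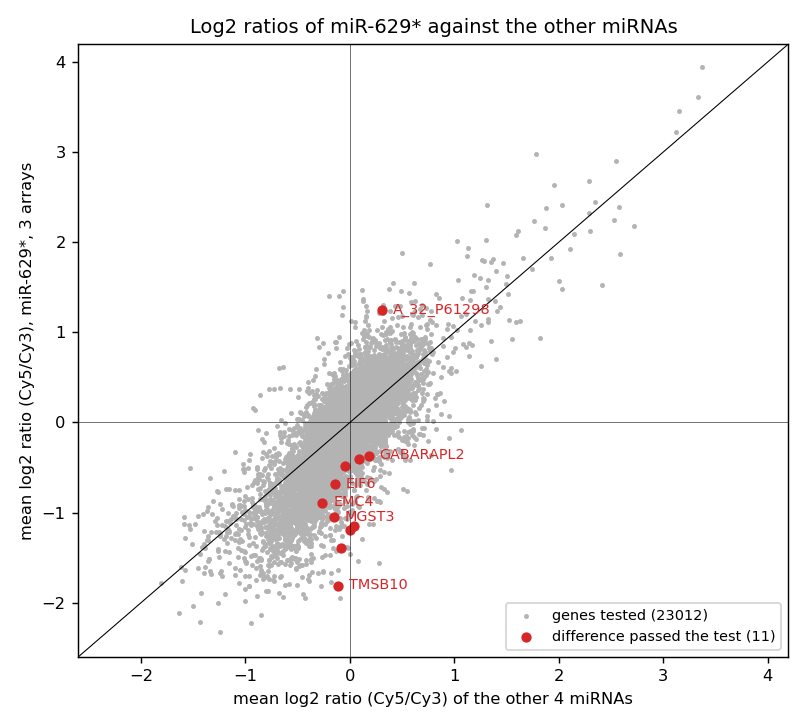
Mean log2 ratio (Cy5 over Cy3) of each gene tested on the 3 miR-629* arrays (vertical axis) against its mean over the other 4 miRNAs (horizontal axis), with the line of equal values. Most genes follow the line (r = 0.805 across genes), and the 11 red points, 10 below the line and 1 above, are those whose difference passed the test.

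Several genes with a ratio called on miR-629* moved the same way on the other miRNAs. CXCL8, the neutrophil-attracting chemokine, was dim, with Cy3 well above background on only 2 of the 3 arrays. It had log2 ratios of 1.34, 0.89 and 1.32 on the 3 arrays and a mean of 0.50 for the other miRNAs, and its difference of 0.68 (SE 0.19) did not pass the test (adjusted p = 0.818, limma). EGR1, an immediate early transcription factor, had 1.25, 0.48 and 1.11 against a mean of 0.62. DCLK1, a microtubule-associated kinase, had 1.03, 0.81 and 0.99 against 0.53. DMRTC1, higher with the mimic at a mean log2 ratio of 1.11, was higher still in the other miRNAs at 1.32. EGR1, DCLK1 and DMRTC1 were dim too, their highest Cy3 signals being 17.7, 25.7 and 12.9. Among bright genes, CD58, an adhesion ligand of T cells, had 0.58, 0.54 and 0.54 against 0.38, and RPL23, a protein of the large ribosomal subunit, had 0.51, 0.42 and 0.49 against 0.38. None of these 6 genes differed from the other miRNAs at an adjusted p under 0.05. BAX, the pro-apoptotic BCL2 relative, stood at -0.67, -0.93 and -1.07 against a mean of -0.12, with an adjusted p of 0.599 for the difference (limma). The other miRNAs did not share a sign for BAX. Their means were 0.18 for miR-181d, 0.16 for miR-565, -0.15 for miR-574-3p and -0.65 for miR-766.

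By the thresholds of the study's methods (ratio under 0.5, p at most 0.001, Cy3 signal of at least 20) 57 genes (0.248%) were suppressed, that is, lower with the mimic than with the antagomir. Of these, 55 had a negative mean in the other miRNAs too. Their median log2 ratio was -1.19 on miR-629* and -0.60 on the others. Replicate 3 carried much of it: the median was -0.92, -1.07 and -1.73 on replicates 1, 2 and 3, and 49 of the 57 were lowest on replicate 3. Without replicate 3 the same thresholds gave 6 genes, 5 of them among the 57. There were 125 genes without miR-629* replicate 1 and 155 without miR-565 replicate 1, whose spread enters the test. A RefSeq symbol was lacking for 43 of the 57 (75.4%), against 36.2% of all genes tested.

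**Figure D2:**
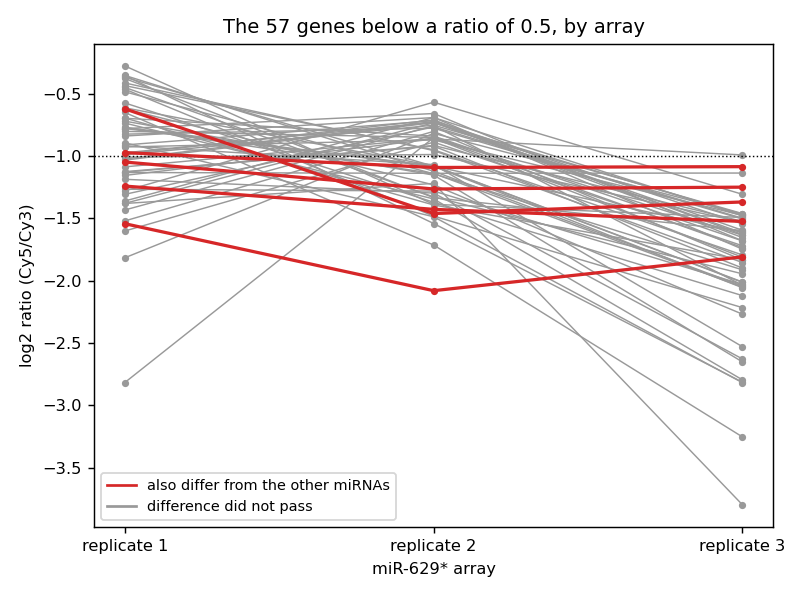
Log2 ratio (Cy5 over Cy3) of the 57 suppressed genes on each miR-629* array, with 1 line per gene and a dotted line at a ratio of 0.5. The 5 red lines, genes that also differed from the other miRNAs, stay within a narrower band than most grey lines, of which most drop on replicate 3.

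The 5 suppressed genes that also differed from the other miRNAs were TMSB10, MGST3 and 3 transcripts without a symbol in RefSeq, ENST00000373268, FLJ31813 and AK054718. TAF15, an RNA-binding protein of the FET family, was the steadiest of the remainder, at -1.13, -1.14 and -1.14 against a mean of -0.07, with an adjusted p of 0.398 for the difference. ANKK1 was at -1.13, -0.92 and -1.90 against -0.75, and MYO1C, an unconventional myosin, at -0.91, -0.72 and -1.55 against -0.55. TAF15 and MYO1C were picked from the 57 after their values were seen. With the same thresholds turned round, 8 genes (0.0348%) were induced, none of them above a mean Cy3 signal of 32.2 or a mean Cy5 signal of 76.4, and only C12orf42 and DMRTC1 of them have a RefSeq symbol.

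Against the mean of the other 4 miRNAs, 10 genes were lower on miR-629* (0.0435%) and 1 was higher (0.00435%). At an unadjusted p under 0.05 there were 561 lower and 432 higher. The differences that passed were those of TMSB10, MGST3, EMC4, GABARAPL2, EIF6, HSBP1, RAMAC and the 3 transcripts named above, and of 1 probe that was higher. The last 4 have no RefSeq symbol, so they lie outside the rule for named genes and were chosen after their values were seen.

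TMSB10, thymosin beta-10, which binds actin monomers, had the lowest difference of the 10. Its log2 ratios were -1.54, -2.08 and -1.81, and the 12 other arrays ran from -0.30 to 0.21 with a median of -0.11. The groups did not overlap, and the difference was -1.70 (SE 0.094, adjusted p = 1.2e-06, limma). TMSB4X, thymosin beta-4 and its close relative, had ratios of -0.10, 0.04 and -0.08, a difference of 0.02 (adjusted p = 0.991); it was chosen as a relative after TMSB10 was seen. The 60 bases of the TMSB10 probe are spread over 344 bases at chr2:84986309-84986652 (NCBI36, plus strand), and the probe shared no stretch of 14 letters or more with another probe.

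MGST3, a microsomal glutathione S-transferase of the MAPEG family, had ratios of -0.97, -1.09 and -1.09, all below the other arrays' range of -0.47 to -0.01. Its difference was -0.89 (SE 0.045, adjusted p = 8.4e-07, limma). The probe lies at chr1:163891312-163891371 (NCBI36, plus strand). EMC4, a subunit of the endoplasmic reticulum membrane protein complex, had -0.77, -0.96 and -0.94 against a range of -0.49 to -0.09, a difference of -0.63 (SE 0.060). GABARAPL2, an autophagy protein of the Atg8 family, had -0.25, -0.47 and -0.38 against -0.00 to 0.25, a difference of -0.55 (SE 0.053). All 3 genes were therefore below every other array.

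EIF6, which keeps the large ribosomal subunit from joining the small one, had -0.55, -0.82 and -0.69 against a range of -0.33 to 0.10. HSBP1, a binding protein of heat shock factor, had -0.38, -0.41 and -0.43 against -0.07 to 0.32, and RAMAC, the activating subunit of the mRNA cap methyltransferase, had -0.40, -0.53 and -0.52 against -0.36 to 0.18. The differences were -0.55, -0.49 and -0.44, with adjusted p of 0.018, 5.2e-04 and 0.027 (limma). The groups did not overlap for these 3 genes either, though the gap was small for RAMAC. UBE2V2, a catalytically inactive partner of the ubiquitin-conjugating enzyme UBE2N, had -0.82, -1.09 and -1.01 and a difference of -0.99 (SE 0.17) that missed the threshold at an adjusted p of 0.079. The 12 other arrays ran from -0.92 to 0.23, and the lowest of them was miR-565 replicate 1. Without that array its adjusted p was 9.8e-07. UBE2V2 was chosen after its values were seen.

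ENST00000373268 had log2 ratios of -1.24, -1.43 and -1.52 and a difference of -1.32 (SE 0.073). FLJ31813 had -1.05, -1.26 and -1.25, a difference of -1.19 (SE 0.10), and AK054718 had -0.62, -1.46 and -1.37, a difference of -1.19 (SE 0.15). Probe A_32_P61298, which the array files under CDR1 but places at chr16:18708154-18708213 (NCBI36, minus strand), had 1.17, 1.30 and 1.28 and a difference of 0.94 (SE 0.13, adjusted p = 0.019, limma). It is therefore named by its probe. It was dim, with Cy3 signals of 38.4, 33.0 and 25.3.

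The probe of FLJ31813 and the second probe of RAMAC share a stretch of 23 letters, shown in capitals in the 60-base probe sequences (plus strand at chr15:81448832-81448891 for RAMAC, minus strand at chr10:51496405-51496464 for FLJ31813, NCBI36), so transcripts of either may bind both. They are printed because these calls may not be independent.
RAMAC: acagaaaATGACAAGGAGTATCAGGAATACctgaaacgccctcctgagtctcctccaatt
FLJ31813: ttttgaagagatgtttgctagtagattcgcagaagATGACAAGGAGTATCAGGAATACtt
The second RAMAC probe differed by -1.03 (adjusted p = 1.8e-05, limma), more than the -0.44 of the brighter one.

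Without replicate 3, 7 of the 10 lower genes still passed, and AK054718, EIF6 and RAMAC did not (adjusted p of 0.121, 0.236 and 0.424). The higher probe, A_32_P61298, did not pass without replicate 3 (0.241), without replicate 1 (0.104), under the random slide block (0.721) or with replicate number as a block (0.067), and RAMAC did not pass without replicate 1 (0.091) or with replicate number as a block (0.101). Under the random slide block TMSB10, ENST00000373268, FLJ31813, MGST3 and GABARAPL2 passed. The correlation within slides that this block uses was 0.730, and without miR-565 replicate 1 it was -0.20, so the block's values rest on that array. Against miR-574-3p replicate 3 alone, on the same slide, the differences were -1.53 for TMSB10, -0.97 for MGST3, -0.55 for EMC4, -0.51 for GABARAPL2, -0.55 for EIF6, -0.40 for HSBP1 and -0.44 for RAMAC, close to those against all the other arrays. That single array is part of the reference by which these genes were called, so the likeness is no separate check. With a slide term on slides 2 and 3, MGST3, FLJ31813 and ENST00000373268 passed, and TMSB10 stood at -1.51 with an adjusted p of 0.053.

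A ratio can move because either channel moves, so the same model was run on each channel's log2 signal, quantile normalized over the 15 arrays within the dye. This comparison was added after the ratios were seen, and the genes named from it were chosen after their values were seen. In Cy3, the antagomir-transfected cells, 144 genes were higher on miR-629* than on the other miRNAs (0.626%) and 56 were lower (0.243%). In Cy5, the mimic-transfected cells, 0 genes passed (0%), with 450 at an unadjusted p under 0.05 against 2959 in Cy3. Without miR-565 replicate 1, 0 genes passed in Cy5 too, and those at an unadjusted p under 0.05 were 1442 in Cy5 and 2792 in Cy3. In Cy3, 176 genes lay above all 12 other arrays (0.765%) and 113 below (0.491%), whereas in Cy5 22 lay above (0.0956%) and 14 below (0.0608%). Without miR-565 replicate 1 these counts were 191 and 129 in Cy3 and 63 and 21 in Cy5. The median residual standard deviation, without miR-565 replicate 1, was 0.113 in Cy3 and 0.125 in Cy5. In a simulation over all 15 arrays the channels did not detect planted changes equally well. It took each probe's spread with miR-565 replicate 1 included and drew the arrays as independent. Recovery without that array was not tested. In simulated data with each channel's own spread, 68% of planted log2 changes of 0.5 were recovered in Cy3 and 33% in Cy5. For planted changes of 1 the shares were 85% and 70%, so the counts of the channels are not on an equal footing. The ratio's own test, which sets the channels against each other on the same arrays, passed for 11 genes. Without miR-629* replicate 3 the Cy3 counts were 62 higher and 14 lower, all of them among the 144 and the 56, and without replicate 2 they were 64 and 22. With a slide term on slides 2 and 3, 163 were higher, 38 of them among the 144, and 22 were lower, 16 of them among the 56.

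**Figure D3:**
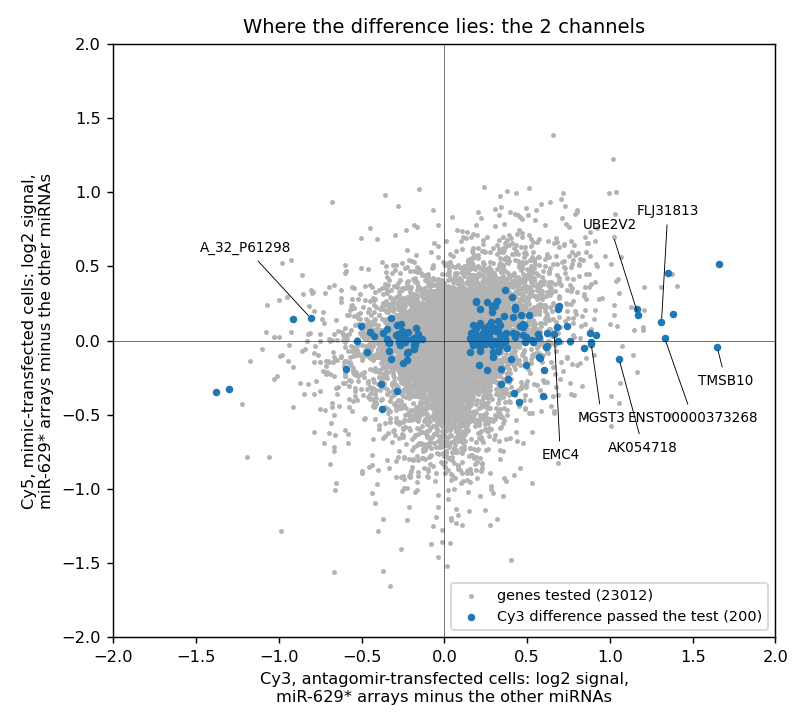
Difference in log2 signal between the miR-629* arrays and the other miRNAs, for Cy3 (horizontal axis, antagomir-transfected cells) and Cy5 (vertical axis, mimic-transfected cells), for each gene tested. The 200 blue points, whose Cy3 difference passed the test, spread along the horizontal axis, with TMSB10 at 1.65 in Cy3 and -0.04 in Cy5. They were chosen by their Cy3 difference, so this spread follows from the choice.

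TMSB10 had been chosen by its low ratio of Cy5 over Cy3, so a higher Cy3 or a lower Cy5 follows in part from the choice. Its Cy3 signals were 71352, 99127 and 69490 on the miR-629* arrays, and 20829 to 38108 with a median of 28439 on the other 12. Its Cy5 signals were 24482, 23433 and 19824, inside the range of 18744 to 36142 on the others. The antagomir channel was thus higher on all 3 arrays than on any other array, by 1.65 on the log2 scale (SE 0.074, adjusted p = 2.2e-09, limma) or 3.13-fold, and the mimic channel differed by -0.04. On miR-574-3p replicate 3, the array of the same slide, Cy3 was 30388.

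MGST3 had Cy3 signals of 35130, 35939 and 29707, against 14997 to 34925 with a median of 19851 on the others. The signals as deposited overlap through miR-565 replicate 1, and after normalization they did not. The Cy3 difference was 0.89 (SE 0.034, adjusted p = 4.1e-10, limma), 1.85-fold, and the Cy5 difference was -0.02. The miR-565 arrays were themselves 0.30 above the mean of the other miRNAs in Cy3 for MGST3. UBE2V2, at 1159, 1205 and 1017 in Cy3 against 459 to 658, was 1.17 higher (SE 0.060, adjusted p = 1.0e-08, limma), or 2.25-fold, and 0.18 higher in Cy5.

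The remaining genes lower in the ratio were likewise higher in Cy3. All were chosen by a low ratio of Cy5 over Cy3 on the same arrays. A higher Cy3 or a lower Cy5 therefore follows in part from the choice. For RAMAC the Cy3 values overlapped those of the other arrays. The Cy3 differences were 0.66 for EMC4, 0.57 for GABARAPL2, 0.53 for EIF6, 0.49 for HSBP1 and 0.48 for RAMAC, and 1.33, 1.31 and 1.05 for ENST00000373268, FLJ31813 and AK054718. In Cy5 EMC4, GABARAPL2, EIF6, HSBP1 and RAMAC differed by 0.05, 0.02, -0.01, -0.01 and 0.04, and ENST00000373268, FLJ31813 and AK054718 by 0.02, 0.12 and -0.12. Probe A_32_P61298, higher in the ratio, was lower in Cy3, at -0.81. TMSB4X differed by 0.02 in Cy3 and 0.04 in Cy5. Where a gene has another probe, the probes did not always move alike: the second probe of EMC4 was 0.38 higher in Cy3 and passed, whereas those of GABARAPL2 and HSBP1 differed by -0.03 and 0.01.

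**Figure D4:**
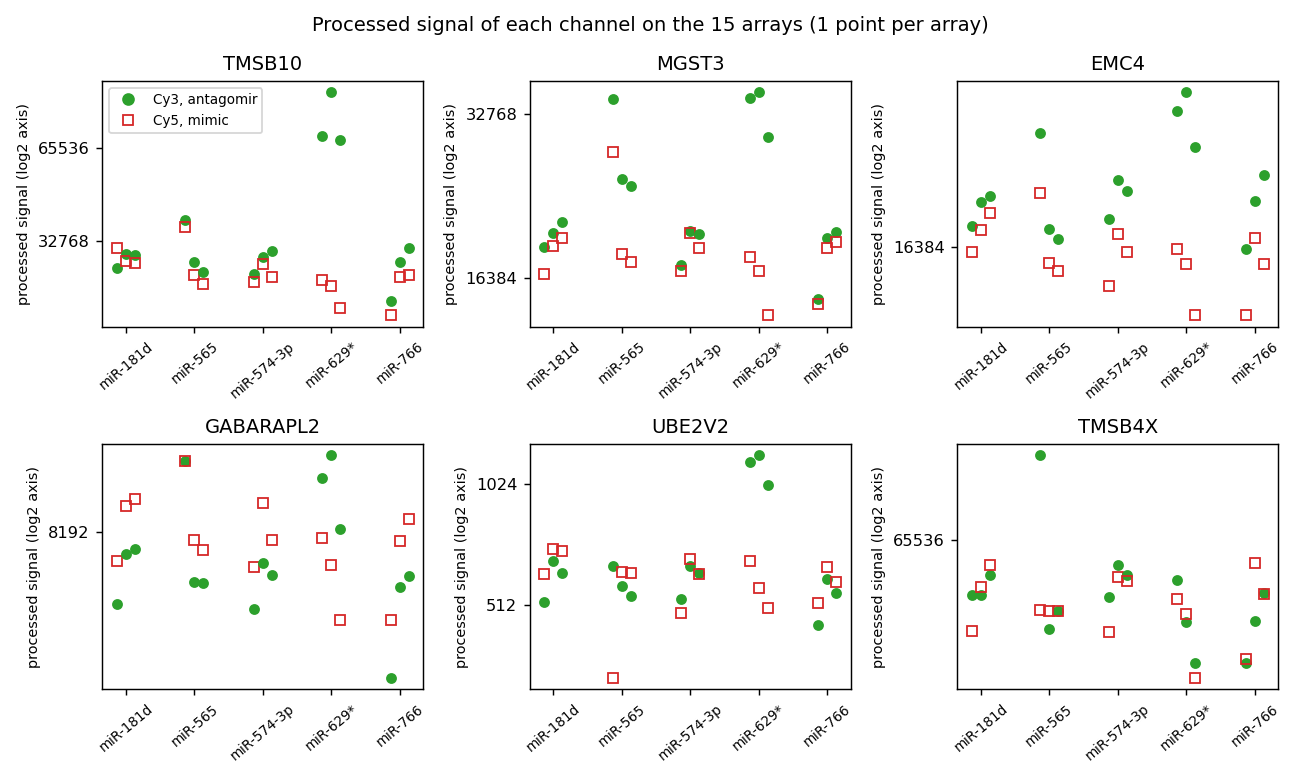
Processed signal (vertical axes, log2 scale) of 6 genes on the 15 arrays, grouped by miRNA, with filled green circles for Cy3 (antagomir) and open red squares for Cy5 (mimic), 1 point per array. For TMSB10 and UBE2V2 the 3 green circles of miR-629* lie above every other array, and for TMSB4X they do not.

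Of the 144 genes higher in Cy3, 86 have a RefSeq symbol, 87 lay above all 12 other arrays and 140 lay above miR-574-3p replicate 3 of the same slide. Those 12 arrays, miR-574-3p replicate 3 included, were the reference by which the 144 were chosen. The counts of 87 and 140 are therefore no separate check. The median difference of the 144 genes was 0.32 in Cy3 and 0.02 in Cy5, and 9 of them exceeded 2-fold. As the genes were chosen by their Cy3 difference, the larger value in Cy3 follows from the choice. The genes named below were taken from those above all 12 other arrays. TRIOBP (0.69), FGFRL1 (0.68) and SLFNL1 (0.59) were called too, but they overlapped the other arrays. Against miR-574-3p replicate 3 alone TRIOBP stood at 2.74 and FGFRL1 at 2.67. Beyond those above, TSPYL1, a nucleosome assembly relative, was higher by 0.53 (adjusted p = 7.9e-07), TAPBP, tapasin of the MHC class I loading complex, by 0.53 (2.3e-05), and DPY30, a subunit of histone methyltransferase complexes, by 0.48 (5.9e-06, limma for the 3). Smaller changes were those of PRIM1, the catalytic subunit of DNA primase, at 0.35, CHMP2B of the ESCRT-III complex at 0.36, IFT52 of intraflagellar transport at 0.33 and BRK1 of the WAVE actin-nucleation complex at 0.32. The other probe of BRK1 was 0.45 higher and passed, while that of CHMP2B differed by -0.15. The other probes of TSPYL1 (-0.21) and TAPBP (0.10 and 0.10), all far dimmer, did not pass either. SERPINB3 and SERPINB4, closely related serpins, were higher by 0.43 and 0.36 and were dim. Whether their transcripts bind each other's probes was not tested, so these calls may not be independent. Without miR-629* replicate 3, IFT52 and SERPINB4 did not pass (adjusted p of 0.108 and 0.087, limma), and the others from TSPYL1 on did. Under a slide term on slides 2 and 3 only TSPYL1, TAPBP and BRK1 of them passed. DPY30 was 0.24 above miR-574-3p replicate 3 alone.

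The 56 genes lower in Cy3, chosen by that same difference, had a median of -0.26 in it, and 14 of them lay below all 12 other arrays. Among those, MAGOH, a core protein of the exon junction complex, was lower at -0.35 (SE 0.050). Its Cy3 signals were 1238, 1142 and 911, against 1160 to 2315 with a median of 1586 on the others. The MAGOH signals as deposited overlap, and after normalization they did not. FBXL7 was at -0.24, THBD, thrombomodulin, at -0.18, DGUOK, a mitochondrial deoxyguanosine kinase, at -0.18 and PPA1, an inorganic pyrophosphatase, at -0.17. MAGOH was 0.37 higher in Cy3 of miR-574-3p than in the mean of the other miRNAs. With miR-574-3p left out of the reference 91 genes were higher, 85 of them among the 144, and 21 were lower, 16 of them among the 56. None of the 5 genes named here is among the 16: their adjusted p was then 0.081 for MAGOH, 0.112 for FBXL7, 0.108 for THBD, 0.235 for DGUOK and 0.338 for PPA1 (limma). Without miR-629* replicate 3, MAGOH passed (0.016), and FBXL7, THBD, DGUOK and PPA1 did not (0.151, 0.181, 0.248 and 0.052).

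The seed complement of miR-629-3p, GGGAGAA, stood in the probe sequences of 3 of the 144 genes higher in Cy3 (2.08%) on either strand, and in 1.28% of all genes tested. On the sense strand the shares were 1.39% and 0.613%. Probes cover 60 bases of a transcript, so this describes the probes and not the transcripts' target sites.

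Genes of 26 lists of pathways and families were followed. In the difference from the other miRNAs, 1 of 29 genes of actin monomer binding and turnover passed (TMSB10) and 1 of 26 glutathione and MAPEG enzymes (MGST3). Both were lower, beside 0.0435% of all genes tested, and the lists were written with earlier results of these data known. In the other 24 lists 0 passed. The list medians lay close to the median of 0.01 over all genes tested: 0.02 for actin monomer binding, -0.00 for glutathione and MAPEG enzymes, 0.04 for cytosolic ribosomal proteins, 0.03 for p53 targets, -0.04 for NRF2 targets, 0.06 for interferon-stimulated genes and -0.06 for sterol and fatty acid synthesis. The lowest was that of the 12 A549 epithelial markers, at -0.11, with -0.22, -0.03 and -0.03 on replicates 1, 2 and 3. The highest was that of the replication-dependent histones, at 0.07. In the ratio against 0, 16 of 78 cytosolic ribosomal proteins were higher and 2 lower, beside 6.21% and 4.52% of all genes tested, with medians of 0.11 on miR-629* and 0.06 on the other miRNAs. Of 44 DNA replication genes 8 were lower and 1 higher, and of 37 proteasome subunits 7 were lower and 0 higher, beside the same shares of all genes. The median ratio of the proteasome subunits was nonetheless 0.04 on miR-629* and -0.08 on the other miRNAs, and 32 of the 37 had a difference above 0.

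In Cy3, the lists added few calls. PRIM1, 1 of 44 DNA replication genes, and H2BC5 (0.38), 1 of 48 histone genes, were higher, against 0.626% of all genes tested. Lower were 1 of 28 p53 targets, ZMAT3 (-0.92, a dim gene), and 1 of 28 immediate early genes, ETV4 (-0.24), against 0.243% of all genes tested. Also lower were 2 of 76 respiratory chain subunits, NDUFB3 (-0.26) and NDUFA1 (-0.18), 2 of 54 splicing factors, SNRPE (-0.27) and SNRPF (-0.25), and 3 of 37 proteasome subunits, PSMA5 (-0.22), PSMA2 (-0.17) and PSMA7 (-0.17). None of these 9 lower genes lay below all 12 other arrays. Against miR-574-3p replicate 3 alone ZMAT3 stood at -2.77, NDUFB3 at -1.09, SNRPE at -0.95 and PSMA5 at -0.64, further from 0 than against all the other arrays. The mean log2 ratio of the miR-574-3p arrays was itself -2.47 for ZMAT3 and -0.98 for NDUFB3. H2BC5, in contrast to its difference from all the others, stood at -0.38 against miR-574-3p replicate 3 of the same slide. In Cy5, 0 genes of any list passed.

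**Figure D5:**
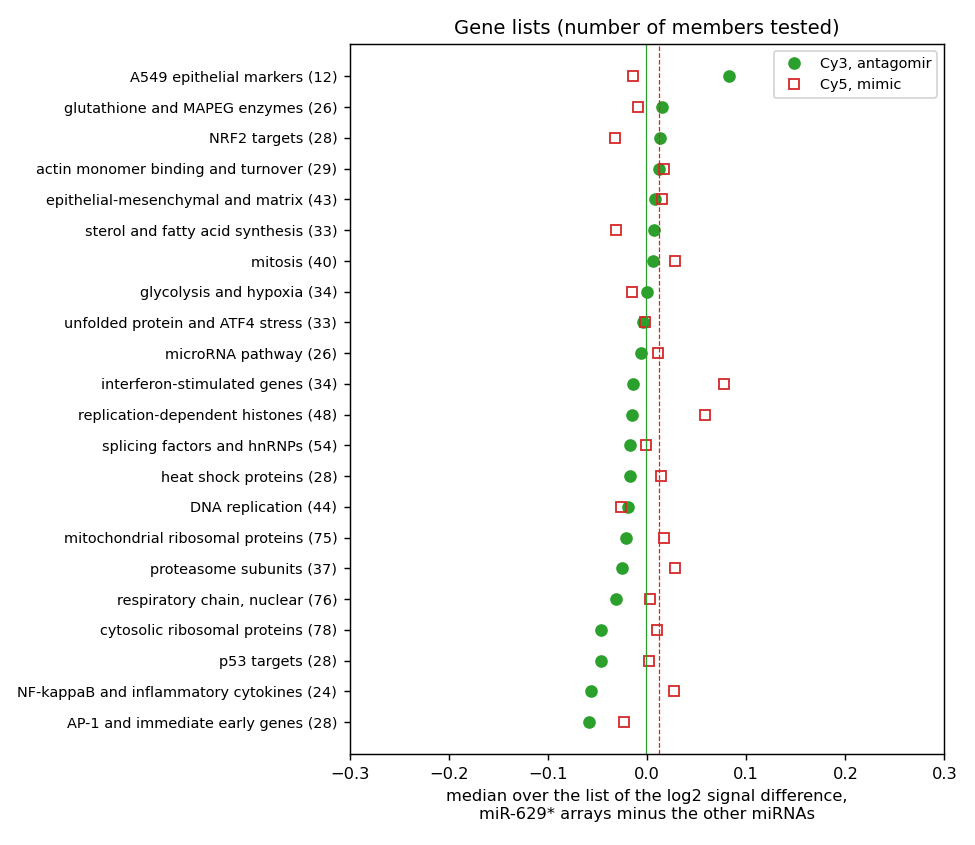
Median over each list with 10 or more members tested (number in brackets) of the log2 signal on miR-629* minus the mean of the other miRNAs, as filled green circles for Cy3 and open red squares for Cy5, with vertical lines at the medians of all genes tested (solid for Cy3, dashed for Cy5). The medians all lie between -0.06 and 0.08, the highest in Cy3 being that of the A549 epithelial markers.

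Genes reported elsewhere as miR-629 targets, with the arm not distinguished, did not pass. LIFR, a receptor of the interleukin-6 family, had log2 ratios of 0.17, 0.02 and 0.06 and a difference of 0.31 (SE 0.24). FOXO3 differed by -0.12 (SE 0.081), HNF4A by -0.08 (SE 0.20) and TRIM33 by 0.00 (SE 0.099). The host gene TLE3 had -0.11, 0.09 and 0.25, a difference of -0.00 (SE 0.15). The adjusted p of all 5 was at least 0.981 (limma), which does not show that they were unaffected.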

How the data were processed

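Cells and arrays are described above. The authors scanned Agilent 2-colour arrays (NCBI build 36) with Feature Extraction 9.5.3, per the labels' processing notes, and deposited processed signal intensity of each dye, flags (score) and log10 ratios; the deposited series table held the same log10 ratios. Here log2(Cy5/Cy3) of the processed signals was taken, control and outlier spots were dropped and spots averaged by probe. A probe was tested if Cy3 or Cy5 was well above background on at least 3 of the 15 arrays, and 12 probes with no unflagged value in a miRNA group were left out. limma 3.58.1 (R 4.3.3) fitted a mean for each miRNA over the 15 arrays, with variances following intensity and Benjamini-Hochberg adjustment at 0.05. Ratios were tested against 0 and against the mean of the other 4 miRNAs. The scripts were tested on simulated data. Named genes were the 10 lowest and 10 highest differences with a RefSeq symbol that passed both tests with the same sign on 3 arrays and were above background (the remainder by ratio alone), the 5 of each with a signal of at least 1000, up to 3 members of each list and direction that passed (otherwise up to 2 as values), and TMSB10, MGST3, TLE3, LIFR, HNF4A, FOXO3 and TRIM33. The members and lists were chosen with earlier results of these data known. Array names matched RefSeq for 27745 of 41000 probes. Not every same-numbered pair of arrays deviated together, so replicate numbers were not taken as pairs. Precision is limited by the number of arrays. The fit to each channel, quantile normalized within its dye, was chosen after seeing the ratios, as were the slide term on slides 2 and 3 and the joint removal of 2 arrays. Other backgrounds, scalings, filters, slide and replicate blocks and left-out arrays were tried. Some genes that the rule names are not reported here.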

Additional observations from a re-analysis of the deposited data

Results flagged for a closer look

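The miRNAs' arrays are groups under the same contrast of mimic against antagomir, and results are listed here where miR-629* differed from the mean of the other 4 by the test of that difference. In the ratio 10 genes were lower and 1 was higher. The log2 differences were -1.70 for TMSB10, -1.32 for ENST00000373268, -1.19 for FLJ31813, -1.19 for AK054718, -0.895 for MGST3, -0.625 for EMC4, -0.548 for GABARAPL2, -0.545 for EIF6, -0.495 for HSBP1, -0.438 for RAMAC and 0.939 for probe A_32_P61298. In the antagomir channel 144 genes were higher and 56 were lower, and in the mimic channel 0 were called (450 at an unadjusted p under 0.05, and 1442 without miR-565 replicate 1).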

How the results depend on the processing

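Of 297 alternative values of the 11 called differences, 254 stayed on the same side of the threshold, 43 did not and 0 changed sign. These include the deposited series table, whose ratios are the same, so agreement there was fixed in advance. Most others left out a single array or a reference miRNA, and share the remaining arrays with the main fit. Changed genes numbered 5429 with the 3 miR-629* arrays only, 7 with slide as a random block, 4727 without miR-629* replicate 3 and miR-565 replicate 1, and 263 to 8295 with each array left out (the extremes without miR-629* replicate 3 and miR-565 replicate 1). Suppressed genes numbered 27 with normexp and loess, 28 with median centering, 27 with no intensity trend, 22 with the 3 arrays only, 4 with the slide block, 224 with error weighting, 14 with both arrays left out, 173 by adjusted p and 6 to 155 with each array left out (35 without miR-574-3p replicate 2, 37 without miR-766 replicate 3). Induced genes were 0 with normexp, 5 with the 3 arrays, 1 with the slide block, 0 at a minimum signal of 100 and 6 to 13 with each array left out (13 without miR-629* replicate 2). Genes lower than the other miRNAs were 6 with the slide block, 1381 with slide as a fixed term, 6 with slides 2 and 3 only, 21 with both arrays left out and 7 to 47 with each array left out (47 without miR-565 replicate 1). Higher genes were 2 with no trend, 0 with the slide block, 548 with the fixed term, 2 with no filter, 3 and 2 with miR-565 or miR-766 left out of the reference, 7 on slides 2 and 3, and 0 to 14 with each array left out (14 without miR-565 replicate 1; 0 without any miR-629* array, miR-181d replicate 2 or miR-574-3p replicate 3). In Cy3, higher genes were 94 with no trend, 50 with both arrays left out, 91 and 228 without miR-574-3p or miR-766 in the reference and 62 to 176 with each array left out. Lower ones were 27 with median scaling, 22 on slides 2 and 3, 9 with both arrays left out, 144, 98, 21 and 119 without miR-181d, miR-565, miR-574-3p or miR-766 in the reference, and 14 to 84 with each array left out (27 without miR-629* replicate 1, 33 without miR-565 replicate 3, 35 without miR-565 replicate 1 or miR-574-3p replicate 2). In Cy5 1 was higher with no filter and 0 to 0 with each array left out. With the replicate block, changed genes were 2309, suppressed 80, lower 9, higher 0, and Cy3 calls 186 higher and 62 lower; same-numbered arrays correlated from -0.39 to 0.51, with 5 of 12 pairs over 0.1. The causes were not tested. Slide is tied to miR-629* but for 1 array, no dye swap exists among these arrays, and dim probes limit the induced genes.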
